A study of Mus musculus with 3 samples.

Results

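The genes described here encode the proteins of the mitochondrial ribosome, and were taken as the protein-coding genes whose symbol is Mrpl or Mrps followed by a digit. The rule found 78 genes, 49 Mrpl and 29 Mrps, among 55418 annotated symbols and 21991 protein-coding genes. A further 5 matching symbols had no protein-coding transcript (Mrps36-ps1, Mrps36-ps2, Mrps36-ps3, Mrpl23-ps1 and Mrpl48-ps) and were left out. The measurements were 3 RNA-seq libraries of 1 group. Each library was made from 1 µg of ribosomal RNA-depleted total RNA of the cytosolic fraction of macrophages grown from C57BL/6J mouse bone marrow and treated with lipid A, the inflammatory part of lipopolysaccharide, at 100 ng/ml for 90 min. The labels number the libraries as biological replicates, give them the same donor identifier, and give neither age nor sex, so a p-value here measures only the spread between these libraries. No untreated, nuclear or other control group was analysed here, so levels were compared within libraries and no effect of lipid A was measured.

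The mitochondrial ribosome translates the few mRNAs that the mitochondrial genome encodes, all of them for subunits of the respiratory chain and ATP synthase. Its ribosomal RNAs come from the mitochondrial genome, but its proteins are encoded in the nucleus, made on cytosolic ribosomes and imported. Part of them descend from bacterial ribosomal proteins and the rest exist only in mitochondria. Macrophages activated by bacterial products are known for a shift from respiration toward glycolysis.

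By their place in the ribosome, 51 of the proteins belong to the large subunit and 26 to the small subunit. Mrps30 and Mrps18a carry a small-subunit symbol but sit in the large subunit. Mrps36 was kept because the rule takes it, although its protein is known as a subunit of the 2-oxoglutarate dehydrogenase complex of the citric acid cycle. Leaving Mrps36 aside, 46 were classed as having a bacterial counterpart and 31 as mitochondria-specific. This classing was not checked against protein sequences. The class called mitochondria-specific holds Mrps24 and Mrps18a, which are related to bacterial ribosomal proteins. Values of the classes were not recomputed with these genes moved. The 78 genes lie on 17 chromosomes with at most 11 on any of them.

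All members passed the filter of each test, and every library gave each of them at least 96.0 counts. The libraries held 33821479, 47843161 and 59390843 expected counts in replicates 1, 2 and 3. All 8 macrophage markers on a fixed list were above the reference defined below, with a summed 7215, 5520 and 5179 TPM. The summed TPM of T cell, B cell, erythroid and fibroblast markers was at most 0.14 in any library, and that of 6 neutrophil markers, led by S100a9, was 41.5, 24.2 and 41.7. Fewer cells of a type and less RNA per cell cannot be told apart in such bulk samples.

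The stretches upstream of transcription starts are shown for members at both ends of the range of levels, because the regulators NRF1, GABP (an ETS factor) and YY1 are known for acting there on genes of mitochondrial function. RefSeq windows (build GRCm38.p6) from 250 bases before to 50 after the start were at hand for 69 members. All 69 lay on the gene's chromosome and strand in the GENCODE M21 annotation, and the last 25 bases of 67 occurred in a GENCODE transcript of the same gene. Shown are the 150 bases before the RefSeq start, 5′ to 3′ on the strand of the gene, with letters matching CCGGAAG (ETS), GCATGCGC (NRF1) or AAGATGGCG (YY1), on either strand, in capitals. From the 5 most abundant members come Mrps21, Mrpl52 and Mrpl33.
Mrps21: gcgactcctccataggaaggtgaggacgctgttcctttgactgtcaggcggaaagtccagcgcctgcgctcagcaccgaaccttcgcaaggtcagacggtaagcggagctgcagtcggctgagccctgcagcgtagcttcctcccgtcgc
Mrpl52: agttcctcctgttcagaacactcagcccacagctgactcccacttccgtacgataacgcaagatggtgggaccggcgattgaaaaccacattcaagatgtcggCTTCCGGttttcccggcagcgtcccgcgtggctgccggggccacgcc
Mrpl33: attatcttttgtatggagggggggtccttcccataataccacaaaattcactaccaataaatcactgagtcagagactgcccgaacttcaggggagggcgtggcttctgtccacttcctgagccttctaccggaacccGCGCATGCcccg
Mrps21 came from chr3:95871515-95871664, minus strand, Mrpl52 from chr14:54426759-54426908, plus strand and Mrpl33 from chr5:31613801-31613950, plus strand. Mrpl52 showed the ETS letters and Mrpl33 the NRF1 letters in this stretch. The windows of Mrps21 and Mrpl33 held ETS letters elsewhere. Of the Mrps21 stretch, 143 bases lie in exons of a noncoding gene. Mrpl27, with ETS letters in its window, is not printed because its stretch lies largely in exons of the protein-coding gene Eme1 on the opposite strand, and Mrpl54 had no entry. From the 5 least abundant members come Mrpl35 and Mrps31.
Mrpl35: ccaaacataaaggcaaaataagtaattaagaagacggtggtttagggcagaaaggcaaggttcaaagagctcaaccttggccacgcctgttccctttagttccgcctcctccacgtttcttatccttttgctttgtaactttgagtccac
Mrps31: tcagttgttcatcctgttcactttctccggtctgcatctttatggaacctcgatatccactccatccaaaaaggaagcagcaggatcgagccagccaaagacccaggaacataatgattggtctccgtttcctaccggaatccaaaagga
Mrpl35 came from chr6:71823785-71823934, minus strand, and Mrps31 from chr8:22411190-22411339, plus strand. Neither held any of the 3 motifs in this stretch, but the window of Mrpl35 held the YY1 letters elsewhere. Of the Mrps31 stretch, 120 bases lie in exons of a noncoding gene. Stretches with long parts in exons of the gene itself or of another protein-coding gene are not printed, which leaves out Mrpl47, with none of the 3 motifs in its window, and Mrps27, with both ETS and YY1 letters. Mrpl19 had no entry. For Mrpl33 and Mrpl35, GENCODE annotates the gene to begin farther upstream than the RefSeq start. Mrpl22, chosen after the matches were seen, shows ETS and NRF1 letters side by side.
Mrpl22: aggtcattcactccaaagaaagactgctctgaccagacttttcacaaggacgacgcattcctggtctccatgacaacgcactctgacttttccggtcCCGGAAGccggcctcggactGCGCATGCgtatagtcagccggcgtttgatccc
It came from chr11:58171514-58171663, plus strand.

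Over the whole windows, 25 of 69 members (36.2%) held the ETS letters, beside 21.3% of 6993 windows of protein-coding genes that averaged 1 TPM or more and 9.12% of all 27025 windows. The NRF1 letters were in 8 members (11.6%), beside 6.26% and 2.81%, and the YY1 letters in 8 (11.6%), beside 3.99% and 1.5%. At least 1 of these 3 motifs was in 35 members (50.7%), beside 29.0% of the expressed genes. The Sp1 letters GGGCGG were in 34 members (49.3%), a smaller share than the 67.2% of expressed genes but a larger one than the 35.9% of all windows. The E-box CACGTG was in 5 members (7.25%, beside 11.3% and 7.24%) and the TATA letters TATAAA in 4 (5.80%, beside 6.62% and 14.2%). A match of letters is a description and not a bound site, and these shares were not tested.

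The 25 members with ETS letters had a median level of 8.53 TPM and the 44 without 5.75 TPM. Members with and without the NRF1 letters had medians of 6.42 and 6.21 TPM, and with and without the YY1 letters 6.12 and 6.21 TPM. These splits leave out the 9 members without a window and were not tested. Transcript length was not compared between the groups. The mRNAs of GABP, YY1, NRF1 and related regulators were themselves measured. Gabpa, the DNA-binding subunit of GABP, was at 9.18, 7.95 and 8.0 TPM, Yy1 at 6.37, 5.33 and 5.29, and Nrf1 at 3.00, 2.22 and 2.52. Of 10 such regulators, Myc was the highest at 10.3, 8.61 and 10.2 TPM, and the coactivator Ppargc1a, known for driving mitochondrial biogenesis in muscle and brown fat, was the lowest at 0.01, 0.03 and 0.01.

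The members were moderately expressed. Their median was 7.05, 5.65 and 5.70 TPM in replicates 1, 2 and 3. TPM is a level per transcript length, scaled to the same total in each library. As the reference served the median level of the 8747 protein-coding genes that averaged 1 TPM or more, namely 7.38, 6.08 and 6.21 TPM. On the log2(TPM + 0.1) scale the members' median difference from the reference was -0.12, with quartiles of -0.82 and 0.57. This median depends on the setting, with 0.095 for FPKM, -0.56 in the second quantification and -1.15 against genes of at least 5 TPM. The reference genes spread more widely, with quartiles of -1.15 and 1.30, and the median of all 13327 genes tested was -1.06. The summed level of the members was 731, 595.7 and 599.2 TPM. That was 0.274%, 0.271% and 0.268% of the TPM of protein-coding genes, or 0.271% ± 0.00291 (SD, n = 3).

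**Figure D1:**
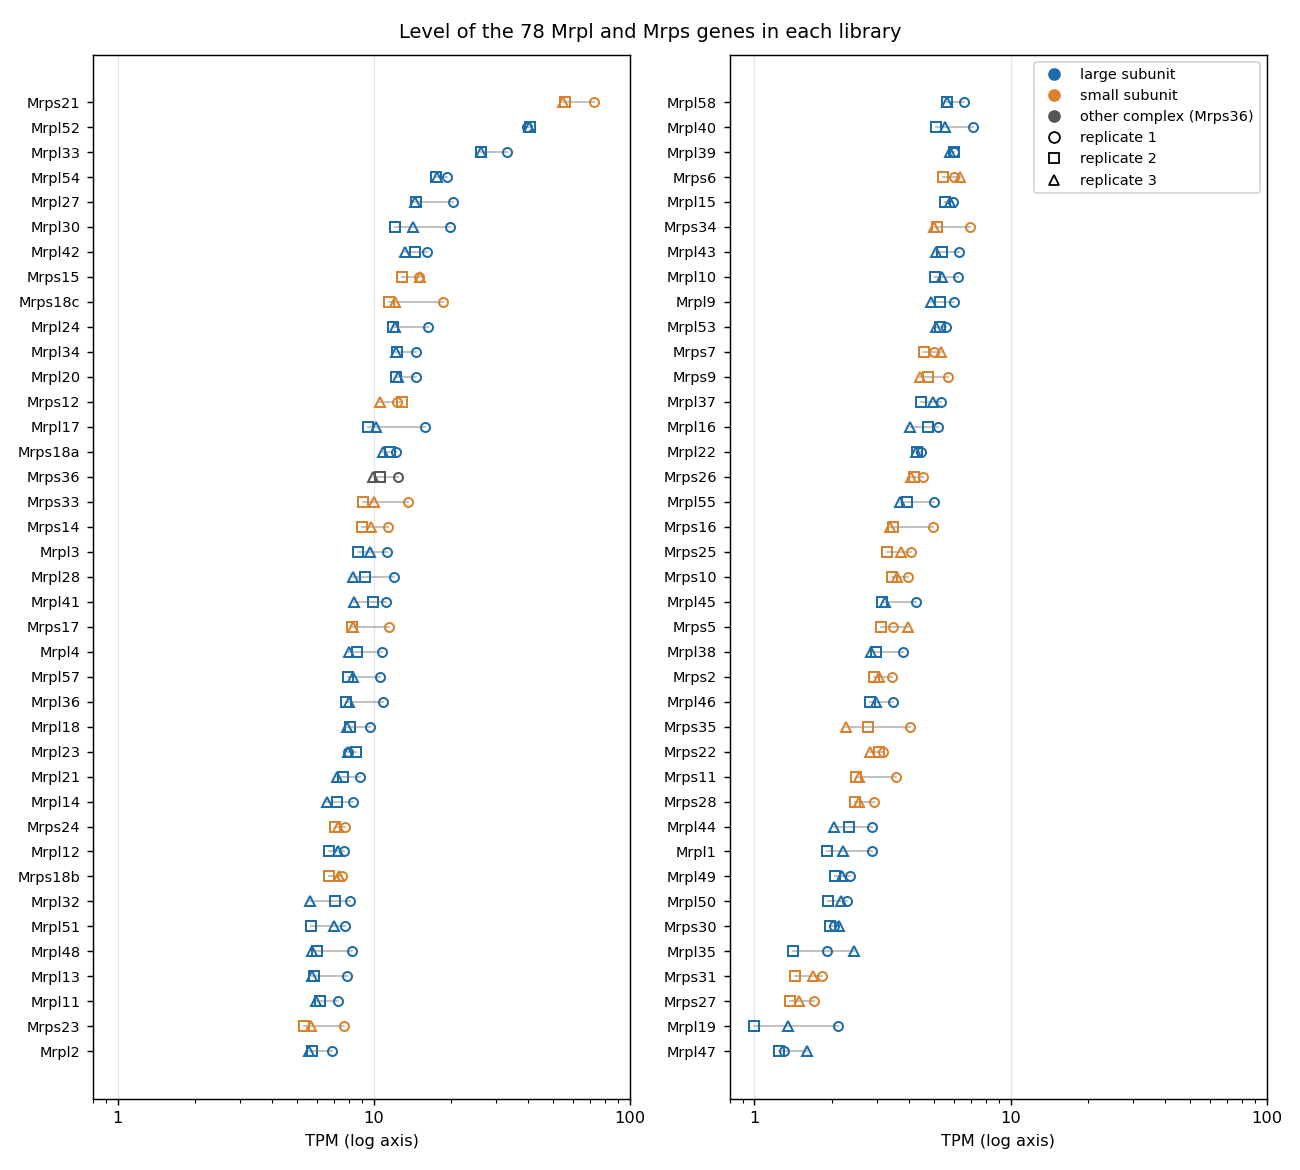
TPM of the 78 genes in each library on a log axis, ordered by mean TPM in 2 columns, with colour for the subunit and a symbol for the replicate; grey lines join the lowest and highest library of a gene. The 3 highest genes stand apart at the top, and replicate 1 is the highest library for 68 of the 78.

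A gene was called above or below the reference where the adjusted p of limma's one-sample moderated test (Benjamini-Hochberg over all genes tested) was under 0.05 and the log2 difference was at least 1 in size. By this rule 10 members were above the reference, 17 below and 51 neither. Over all 13327 genes tested, 20.5% were above and 50.6% below, a group that holds many genes of low level. Among the 8747 reference genes, to which every member belongs, 30.0% were above and 28.0% below. All 27 called members had the same sign in all 3 libraries. That adds nothing to the call, since the SD of the log2 difference was at most 0.384 among the members. Against a reference of genes of at least 5 TPM, 3 members were above and 44 below, beside 15.4% and 50.6% of the same 8747 genes. The second quantification gave 3 above and 24 below, beside 22.3% and 37.1% of 8737 genes. Raw TPM was highest in replicate 1 for 68 members, but relative to the reference of each library the highest was replicate 1 for 27, replicate 2 for 26 and replicate 3 for 25.

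The most abundant member was Mrps21, a small-subunit protein with a bacterial counterpart (ENSMUSG00000054312.6, GENCODE M21 on mm10, chr3:95862634-95871519). It was at 72.6, 55.8 and 54.8 TPM, a log2 difference from the reference of 3.19 ± 0.08 (SD, n = 3; limma adjusted p = 3.28e-05), or 9.14-fold. Mrpl52, a mitochondria-specific protein of the large subunit (chr14:54426909-54429756), was at 39.6, 40.6 and 40.2 TPM, a difference of 2.60 ± 0.17 (limma adjusted p = 7.05e-05). Mrpl33, a small protein of the large subunit with a bacterial counterpart (chr5:31596935-31664384), was at 33.0, 26.2 and 26.1 TPM (2.10 ± 0.05, limma adjusted p = 4.35e-05). The order of these 3 was the same in every library and their ranges did not overlap. Together they held 19.9%, 20.6% and 20.2% of the members' summed TPM. Mrps21 alone was above 92.8% of the reference genes.

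Next came Mrpl54, mitochondria-specific, at 19.4, 17.5 and 17.7 TPM, and Mrpl27, a large-subunit protein known to lie near the peptidyl transferase centre of bacterial ribosomes, at 20.4, 14.5 and 14.5 TPM. The ranges of these neighbours overlapped, so their order is not settled beyond the spread. The other members above the reference were Mrpl30, Mrpl42, Mrps15, Mrps18c and Mrpl24, with means from 13.4 to 15.3 TPM. Mrpl24 (1.01) and Mrps18c (1.06) lay just inside the limit of 1 on the log2 scale, and Mrpl34 and Mrpl20 (both 0.98) just outside it. Without replicate 1, Mrpl24 was at 0.93 and Mrps18c at 0.90 and neither was called.

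At the other end, Mrpl47 was at 1.30, 1.25 and 1.60 TPM (-2.17 ± 0.26, n = 3, limma adjusted p = 0.00025). It is the counterpart of a bacterial protein at the polypeptide exit of the large subunit, and its gene (chr3:32725397-32737605) overlaps exons of Actl6a and Ndufb5 on the opposite strand. Mrpl19, also of bacterial descent (chr6:81957851-81965958), was at 2.11, 1.00 and 1.35 TPM (-2.12 ± 0.37). Mrps27, a pentatricopeptide repeat protein of the small subunit (chr13:99344786-99415562), was at 1.71, 1.38 and 1.49 TPM (-2.03 ± 0.04), and Mrps31, also of the small subunit and mitochondria-specific, at 1.83, 1.44 and 1.69 (-1.93 ± 0.10). Mrpl35 was at 1.92, 1.41 and 2.45 TPM (-1.74 ± 0.38), the largest SD of the log2 difference among the members. The ranges of these 5 overlapped each other.

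Mrps2 (-1.03) and Mrpl38 (-1.01) lay just inside the lower limit, and Mrpl45 (-0.88) and Mrps5 (-0.87) just outside. Mrpl38 was not called without replicate 2 or without replicate 3, at -0.998 and -0.97. From the highest member to the lowest the mean TPM differed 44.1-fold.

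Large-subunit genes had a median of 6.47 TPM and small-subunit genes 4.98 TPM. The difference of the medians on the log2 scale was 0.51, 0.35 and 0.29 in replicates 1, 2 and 3, or 0.38 ± 0.11 (SD, n = 3), large above small in each library. Of the 51 large-subunit genes 7 were above the reference and 10 below, and of the 26 small-subunit genes 3 were above and 7 below. The 46 genes classed as of bacterial descent had a median of 7.05 TPM (7 above, 7 below). The 31 classed as mitochondria-specific had a median of 5.60 TPM (3 above, 10 below). The lowest of the 4 classes was the 10 small-subunit genes classed as mitochondria-specific, Mrps24 among them. They had a median of 3.99 TPM with none above the reference and 4 below. Among the reference genes 30.0% were above and 28.0% below. These are descriptions of unequal classes with wide ranges, from 1.53 to 61.0 TPM in the small subunit and from 1.38 to 40.1 in the large.

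By role, the genes for the factor-binding stalk of the large subunit sat at the reference. Mrpl12, the stalk protein, was at 7.62, 6.69 and 7.24 TPM, and Mrpl11, at the stalk base, at 7.21, 6.13 and 5.95. Mrpl10, which anchors the stalk proteins, was at 6.25, 5.08 and 5.40 TPM. These 3 differed from the reference by 0.13, -0.03 and -0.23 on the log2 scale and none was called. Mrps12, the counterpart of the bacterial decoding-centre protein, was higher, at 12.3, 12.9 and 10.6 TPM. Mrpl58, a peptidyl-tRNA hydrolase that became part of the large subunit, was at 6.57, 5.63 and 5.62 TPM. Mrpl45, known for contact with the inner membrane at the exit tunnel, was at 4.26, 3.16 and 3.22, and Mrps30, a mitochondria-specific large-subunit protein, at 2.05, 1.97 and 2.14 TPM, called below (-1.62, limma adjusted p = 0.000193).

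The 3 paralogues of the bacterial small-subunit protein that gives Mrps18 its name had different levels. Mrps18c was the highest at 18.7, 11.4 and 12.1 TPM and Mrps18b the lowest at 7.48, 6.68 and 7.29, with no overlap between them. Mrps18a, which sits in the large subunit, was at 12.1, 11.6 and 10.8 TPM and overlapped Mrps18c. Mrps36, of the dehydrogenase complex, was at 12.5, 10.5 and 9.95 TPM, within the range of the ribosomal members.

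Within the family, level per length and length went together. The transcript length that the files give for a gene had a median of 1053 bases in the members and 2552 in the reference genes, and 89.5% of reference genes were longer than the members' median. Across the 78 members, log2 level against log2 length gave Pearson's r of -0.75 and Spearman's rho of -0.72. Across the 8747 reference genes these were -0.18 and -0.12. These are correlations across genes, which are not independent replicates, and TPM is itself divided by length, so both axes share it. The expected counts of the members, which are not divided by length, hardly moved with it, with r of 0.04 and rho of 0.07 on log2 scales, while the reference genes gave 0.36 and 0.38. In counts the members spanned 9.36-fold, from 133 on average for Mrps28 to 1245 for Mrps21.

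**Figure D2:**
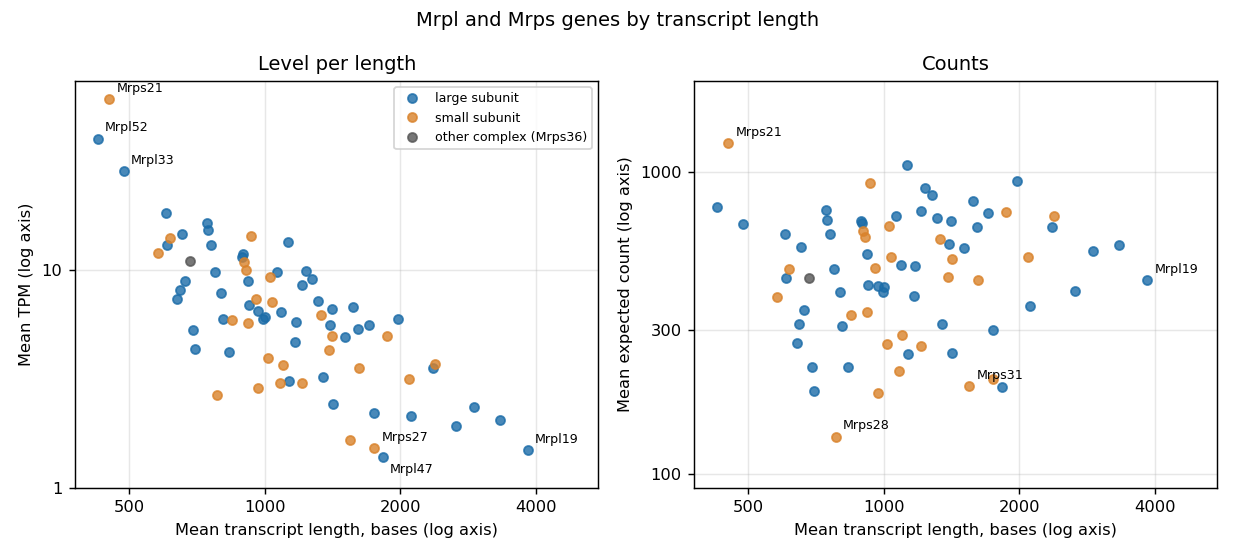
Mean TPM (left) and mean expected count (right) of each member against mean transcript length in bases, all axes log, with colour for the subunit. TPM declines with length from Mrps21, Mrpl52 and Mrpl33 down to Mrpl19, while counts show no such slope.

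The 13 members under 700 bases had a median log2 difference of 0.98, with 6 above the reference and 0 below. The 14 members over 1700 bases had a median of -1.49, with 0 above and 9 below, and the 51 in between -0.09. In reference genes of the same length classes the medians were 1.61, -0.11 and 0.23, so the members lay below them in each class. The median of short reference genes was itself beyond the limit of 1. Over all lengths 30.0% of reference genes were above and 28.0% below. Shares called within the length classes were not computed. The 2 ends were close in counts, with a median of 446.7 per library for short members and 533.7 for long ones. Recomputed with the annotated in place of the effective length, a step added after the data were seen, r was -0.68 and rho -0.63. The relation was weaker with coding length alone (r of -0.63) and with the length of the 3′ untranslated region alone (r of -0.47). The top coding transcript had a median coding length of 552 bases in the members and 1284 in the reference genes, and a 3′ untranslated region of 301.5 and 910 bases.

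Once library size was accounted for, the members varied between the libraries slightly less, on the median, than genes of similar abundance. On TMM-scaled counts the median SD of log2 CPM (counts scaled by library size) was 0.0984, from 0.00991 for Mrpl51 to 0.271 for Mrpl52. The median was 0.120 over all 12330 genes tested and 0.114 over the 4837 genes in the members' range of abundance. The SD was under the median of all genes for 53 of 78 members. In edgeR's goodness-of-fit test against the dispersion trend (Benjamini-Hochberg adjustment), 0 of 78 members were called variable, and 0 had an unadjusted p under 0.05. Over all genes 2.28% were called, and 5.86% had an unadjusted p under 0.05. With DESeq2 size factors the count was also 0. Several lists described below were alike in this, while the mitochondrial mRNAs and ribosomal RNAs were not. Of complex I genes, taken by symbol, 0 of 36 were called variable, with a lower median SD of 0.0763. Of 12 mitochondrial translation factors and 25 assembly genes 0 were called.

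The 5 members with the largest SD had no common direction. Mrpl52 had 451, 835 and 1014 counts, lowest in replicate 1 by log2 CPM (3.68, 4.16 and 4.14). Mrpl17, at the exit tunnel in bacterial ribosomes, was highest there (4.12, 3.74 and 3.78). Mrps12 was highest in replicate 2 (2.85, 3.24 and 3.01) and Mrps6 in replicate 3 (2.64, 2.82 and 3.01), while Mrpl23 (2.51, 2.87 and 2.80) shares sequence with a copy.

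The RNAs that the mitochondrial ribosome works on differed widely between the same libraries. The 13 mRNAs of the mitochondrial genome summed to 3436, 5047 and 8945 TPM, which was 4.70, 8.47 and 14.9 times the members' sum. Their median SD of log2 CPM was 0.839 and 11 of 13 were called variable by edgeR's goodness-of-fit test. The highest was mt-Atp8, for an ATP synthase subunit, at 1101, 1756 and 3223 TPM. Its gene overlaps mt-Atp6, which was at 93.38, 96.05 and 180.79 TPM. The division of reads between them was not tested, and the mt-Atp8 value enters the sum above. The lowest was mt-Co2, for a subunit of cytochrome oxidase, at 7.46, 5.16 and 4.48. The summed mitochondrial ribosomal RNAs were at 64.4, 5.33 and 15.3 TPM after the depletion step, and both were called variable. The nuclear RNA Malat1 was at 128, 335 and 913 TPM and Neat1 at 12.9, 24.1 and 66.9, in the same order of libraries as the sum of the mitochondrial mRNAs. Single mitochondrial mRNAs could differ, as mt-Co2 was highest in replicate 1. By TPM mt-Co3 was also highest there (158, 86.1 and 138). By log2 CPM it was highest in replicate 3, with deviations from its mean of 0.15, -0.40 and 0.25. In deviations from the mean of the 3 libraries the members' medians were -0.03, 0.02 and 0.0046 log2 units, and those of the mitochondrial mRNAs -0.86, 0.05 and 0.82. For cytosolic ribosomal protein genes, of which edgeR called 0 of 84 variable, the medians were 0.14, 0.01 and -0.15. The part of nuclear or mitochondrial RNA carried over in the fraction was not tested.

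**Figure D3:**
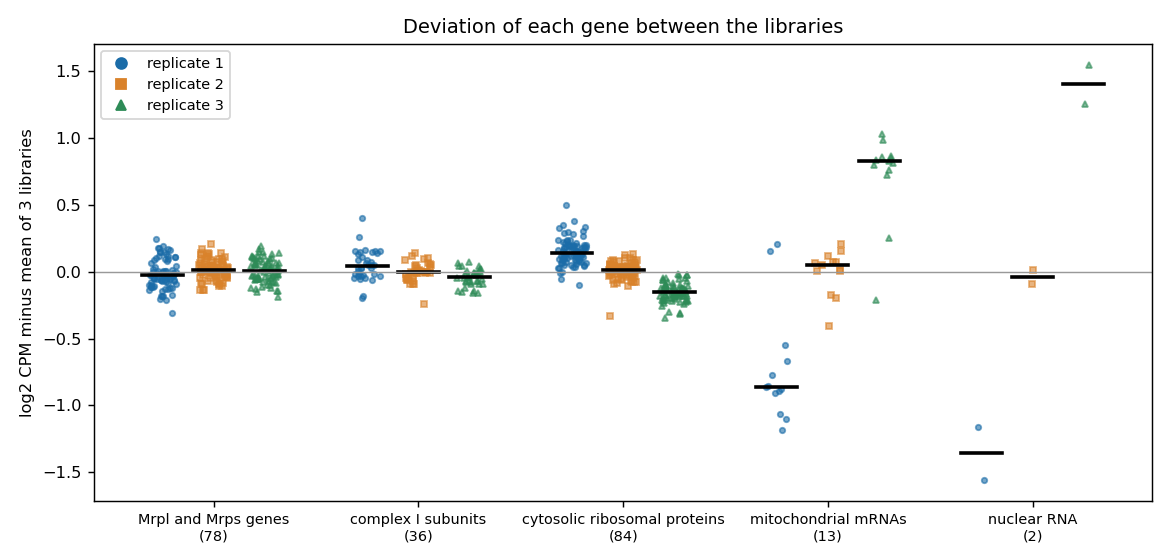
Log2 CPM of each gene minus its mean over the 3 libraries, by list (number of genes in parentheses), with colour and symbol for the replicate and a black bar for the median. The members stay between -0.31 and 0.24 in all libraries, while mitochondrial mRNAs and the 2 nuclear RNAs are lowest on the median in replicate 1 and highest in replicate 3.

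Beside related lists, the members lay between the machinery that helps the ribosome and the complexes it serves. The 5 ribosomal subunits that carry no Mrp symbol had a median of 6.64 TPM, close to the members. Aurkaip1, of the small subunit, was at 15.8, 12.5 and 13.8 TPM and called above (1.08, limma adjusted p = 0.00019). Chchd1, also of the small subunit, was at 13.1, 11.5 and 12.0 TPM, and Dap3, its GTP-binding subunit, at 7.26, 6.33 and 6.32; neither was called. Ptcd3, a pentatricopeptide repeat subunit, was at 2.60, 2.17 and 2.50 TPM and called below (-1.40, limma adjusted p = 0.000158). Gadd45gip1, of the large subunit, was at 1.56, 1.42 and 1.28 TPM and called below (-2.13, limma adjusted p = 5.59e-05).

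Of 12 mitochondrial translation factors, 0 were above the reference and 8 below, with a median of 1.49 TPM. The elongation factor Tufm was the highest at 9.05, 7.82 and 7.94 TPM and Mtfmt, which formylates the initiator methionyl-tRNA, the lowest at 0.53, 0.57 and 0.57. Of 25 genes for assembly and rRNA modification, 1 was above and 18 below, with a median of 1.43 TPM, from C1qbp at 17.8, 14.9 and 15.4 TPM to the endoribonuclease Ybey at 0.17, 0.15 and 0.16. Of 6 genes for mitochondrial transcription and RNA binding, Slirp, an RNA-binding partner of Lrpprc, was above (21.3, 13.6 and 13.7 TPM) and 4 were below, the lowest being the elongation factor Tefm at 1.40, 1.12 and 0.96 TPM. Nuclear genes of complex I were taken by symbol alone, as Nduf with a, b, c, s or v and a digit. The place of each protein in the complex was not checked. They had a median of 19.2 TPM, with 28 above the reference and 0 below of 36 tested. Ndufa1 was the highest at 78.8, 63.9 and 59.6 TPM, and Ndufa4l2 the lowest, listed at 0 in replicates 1 and 2 and at 0.05 in replicate 3. Cytosolic ribosomal protein genes had a median of 190.3 TPM, with 82 above and 2 below of 85 tested, from a mean of 789.4 TPM for Rpl41 to 0 for Rpl10l, and summed to 33.2, 29.4 and 26.5 times the members. The background shares are 20.5% above and 50.6% below, as given before. Transcript length was not compared between these lists. Reference genes under 700 bases had a median log2 difference of 1.61, beside 1.535 for the complex I genes. The part that length has in the order of the lists was not tested.

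**Figure D4:**
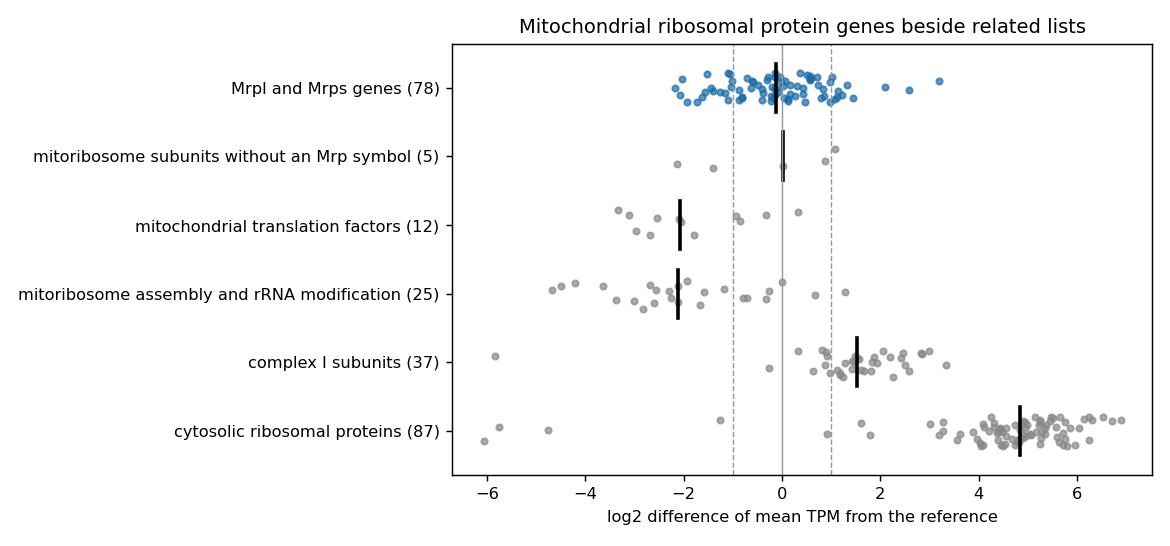
Log2 difference of mean TPM from the mean reference for each gene (points, spread vertically at random) of 6 lists with the number of genes in parentheses; black bars are medians, the grey line is the reference and dashed lines mark a difference of 1. The members spread around the reference, the factors and assembly genes lie to the left and complex I and cytosolic ribosomal protein genes to the right.

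The annotation gives the members 343 transcripts, and in 65 genes the most abundant was of protein-coding type. In the other 13 it was of a type not called protein-coding: 4 retained-intron, 4 nonsense-mediated decay and 5 processed transcripts. Such shares are estimates of how reads divide between overlapping transcripts. For Mrpl57, a mitochondria-specific large-subunit protein, the retained-intron share of the gene's TPM was 94.2%, 93.5% and 93.6%. It was 91.6%, 89.3% and 88.3% for Mrps26, 69.1%, 66.2% and 65.5% for Mrps25, and 51.7%, 55.8% and 42.4% for Mrps5, and next came Mrpl38 with 14.5%, 15.5% and 25.4%. The first 4 of these stand far from the rest. The median over the 48 members with such a transcript was 0.324%, 1.34% and 1.89%.

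Transcripts marked for nonsense-mediated decay, the pathway that degrades mRNAs with a premature stop, made up 91.8%, 92.2% and 88.6% of the TPM of Mrpl32 and 83.6%, 87.9% and 88.6% of that of Mrps14. For Mrpl3 the share was 82.7%, 67.9% and 65.7%, and for Mrpl13 53.2%, 53.0% and 59.2%. Of the 19 members with such a transcript, 8 (42.1%) had at least 10% of their TPM on it in replicate 1, beside 23.3% of 2640 protein-coding genes of at least 1 TPM that have one. The count was also 8 in replicates 2 and 3, beside 25.1% and 24.8%. For retained-intron transcripts the share with at least 10% was 18.8%, 16.7% and 18.8% of 48 members, beside 14.7%, 16.5% and 23.0% of 5395 genes. In the second quantification the leading type was the same for 11 of the 13 genes. The exceptions were Mrpl13, where the decay type held 55.1% in the first and 43.1% in the second, and Mrps5, where protein-coding and retained-intron types were nearly equal in the first. The share of the leading type differed between the quantifications by a median of 3.34 percentage points and by at most 12.0.

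**Figure D5:**
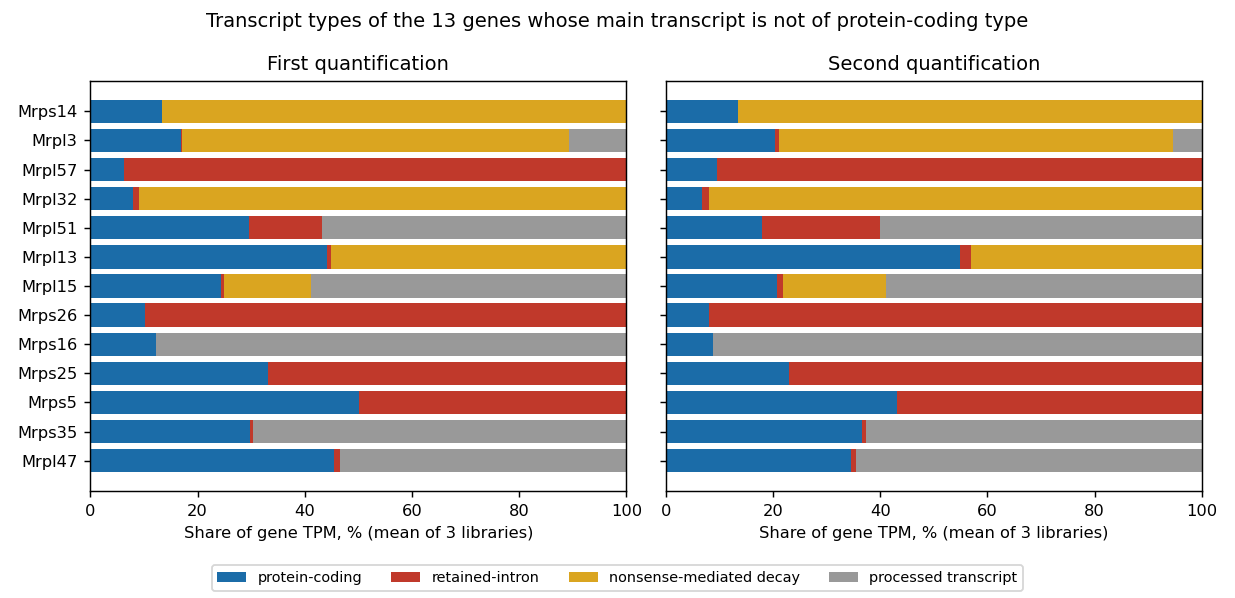
Share of the gene's TPM on each annotated transcript type, as the mean of 3 libraries, for the 13 members whose most abundant transcript is not of protein-coding type, in the first (left) and second (right) quantification. The leading type is the same in both panels for 11 of the 13 genes, with Mrpl57 and Mrps26 nearly all retained-intron and Mrps14 and Mrpl32 nearly all nonsense-mediated decay.

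Of the 45 members with a retained-intron share above 0, the share was highest in replicate 3 for 33, in replicate 2 for 7 and in replicate 1 for 5. Other genes showed the same, with replicate 3 highest for 73.0% of 5053. Malat1, given above, was also highest in replicate 3, and the part of nuclear RNA in these shares was not tested. The 4 members with the largest shares did not follow this order, since replicate 3 was not their highest library.

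The second quantification, made by the authors from the sequence reads directly, gave lower gene TPM on the median, with median log2 ratios to the first of -1.02, -1.22 and -1.52 over the 9481 genes tested. After these medians were taken off, the members' median ratio was -0.02 and 75 of 78 (96.2%) lay within 0.5 on the log2 scale, beside 91.9% of all genes tested. By limma (adjusted p under 0.05 and a log2 ratio of at least 1 in size) 1 member was lower in the second quantification and 0 were higher. Over all genes 1.93% were lower and 2.72% higher. The most abundant transcript was the same in both for 71 members.

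The lower member was Mrpl23, the counterpart of a bacterial protein at the exit tunnel (chr7:142532686-142540747). It was at 7.89, 8.53 and 7.89 TPM in the first quantification and 1.28, 1.06 and 0.614 in the second, a centred log2 ratio of -1.72 ± 0.23 (SD, n = 3; limma adjusted p = 0.00502). Its processed pseudogene Mrpl23-ps1 (chr2:74591330-74591909) matches a transcript of it with 100.0% identity over 540 bases, 91.5% of the top coding transcript. Mrpl23-ps1 was listed at 13.7, 7.79 and 7.32 TPM in the first quantification and 9.75, 5.87 and 4.38 in the second. Of the sum of both genes Mrpl23 held 36.5%, 52.3% and 51.9% in the first and 11.6%, 15.3% and 12.3% in the second. The sum itself did not share the shift, with centred log2 ratios of 0.06, -0.0042 and -0.07, or -0.0043 ± 0.06. The level of Mrpl23 alone is uncertain, and the sum of both genes was 21.6, 16.3 and 15.2 TPM in the first.

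Mrpl19 (0.71), Mrpl35 (0.64), Mrps5 (0.43) and Mrpl51 (0.32) had the next largest ratios, all higher in the second quantification and under the limit of 1. Near-identical copies elsewhere in the genome (at least 95% identity over 200 bases or 50% of the transcript) were annotated for 19 members, 24 copies in all. Of these copies 13 were listed at 0 TPM in all 3 libraries, and Mrpl23-ps1 alone reached 1 TPM. The authors' posterior SD of the count, which rises where reads fit several genes, was 0 for 49 members and above 1% of the count for 3: Mrpl23 (up to 10.4%), Mrps25 (2.81%) and Mrpl47 (2.56%).

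Many members share their start with another gene. A protein-coding gene on the opposite strand started within 1000 bases of 33 members (42.3%), beside 18.2% of reference genes, a difference that was not tested. The members Mrpl46 and Mrps11 form such a pair, with annotated ends that overlap by 412 bases at their starts, and were at 3.46, 2.83 and 2.97 TPM and at 3.57, 2.49 and 2.57 TPM, each called below the reference. Other partners were Sars2, the mitochondrial seryl-tRNA synthetase, for Mrps12, Ndufs6 of complex I for Mrpl36, Ndufb5 for Mrpl47, and Fau, which encodes a cytosolic ribosomal protein, for Mrpl49. Exons of 28 members (35.9%, beside 32.3% of reference genes) overlapped a gene on the opposite strand, and of 8 members a gene on the same strand. The sources at hand do not say if reads were counted by strand, so these values may hold reads of the partner. The 33 members with neither overlap nor copy had a median log2 difference of -0.14, with 3 above the reference and 9 below.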

How the data were processed

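Text notes deposited with the files name mm10 and GENCODE M21; the tools behind both quantifications are not named there. Per the file headers, the authors' first quantification holds expected counts, TPM, FPKM, a posterior SD of the count and, as a signal within each library, lower and upper TPM bounds whose level is not stated. The second, which the authors derived from sequence reads directly, gives per transcript an estimated count and a TPM, which were summed per gene.

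Members and lists were chosen with earlier results of these data known. S6 kinases and Rps19bp1 match the symbol pattern of the cytosolic list and were removed after the files were seen. Identifiers of 1 symbol were summed. Levels were tested as log2(TPM + 0.1) minus the library reference with limma 3.58.1 (one-sample moderated test; genes averaging 0.1 TPM or more), and the log2 ratio of the quantifications likewise (1 TPM or more in either). Expected counts, rounded to whole numbers, of genes with at least 10 in every library went into edgeR 4.0.16 (TMM, goodness of fit, prior count 2), with DESeq2 1.42.0 size factors as an alternative, in R 4.3.3. These fits were tested on simulated data. Copies were sought with BLAST+ 2.17.0 among GENCODE transcripts. Depth is given in expected counts per library.

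Named members were the 5 highest and 5 lowest by mean TPM, the 5 each with the largest SD of log2 CPM, ratio between quantifications and retained-intron share, the 2 nearest each limit on either side, and 11 by role; of other lists, every ribosomal subunit without an Mrp symbol and the highest and lowest gene. Mrpl30, Mrpl42, Mrps15, Mrpl3, Mrpl13, Mrpl32, Mrps14, Mrpl46, Mrps11, Mrps28, Mrpl36, Mrpl49 and Mrpl22 were named after their values were seen. Alternatives changed the pseudocount, filters, reference, unit, quantification, scaling, subunit assignment and libraries. Protein sequences were not analysed here.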

Additional observations from a re-analysis of the deposited data

How the results depend on the processing

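Members above the reference numbered 3 with a reference of at least 5 TPM and 3 in the second quantification, in place of 10. Members below it numbered 44 with that reference, 11 with a pseudocount of 1 and 11 with FPKM, in place of 17. The members' median log2 difference was -1.15 with the reference of at least 5 TPM, which is higher by construction. It was 0.095 with FPKM, -0.56 in the second quantification and -0.031 with annotated lengths, an alternative chosen after seeing the data. In these 3 settings the cut of 1 for reference genes was applied to the changed values, so the set of reference genes could change too. Within a library FPKM and TPM differ only by a constant factor. The shift with FPKM can therefore come only from the changed set of reference genes and from the pseudocount. For the second quantification and annotated lengths, the part of the shift that came from the changed set was not tested. Mrpl23 went to -1.87 in the second quantification, and Mrpl24 to -0.018 with the reference of at least 5 TPM. Leaving out a library gave 8 to 10 members above and 15 to 17 below. The number of variable members was 0 in each alternative run, and the numbers lower and higher in the second quantification were 1 and 0. The large minus small difference ran from 0.30 to 0.43 over its alternatives. No paired analysis was possible because all libraries form 1 group. Each member had at least 96.0 counts in every library; copies and overlapping genes limit single levels further.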
